A study of Mus musculus with 21 samples.

Results

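The genes described here encode the enzymes that attach glutathione, sugars or sulfate to drugs, toxins and the body's own metabolites: the cytosolic glutathione S-transferases (GST), the UDP-glycosyltransferases (UGT) and the sulfotransferases (SULT). They were chosen by gene symbol, with earlier results of these data known. The rule took every mouse gene named Gsta, Gstk, Gstm, Gsto, Gstp, Gstt, Gstz, Ugt or Sult with a number. Pseudogenes were left out, and at least 10 read counts summed over all libraries were required. Of 27179 genes in the count tables, 64 carried such a symbol and 50 reached the count minimum, namely 21 GST, 18 UGT and 11 SULT genes. The other 14 held under 10 counts. Of the 50 members, 41 passed the filter on low counts and were tested (20 GST, 13 UGT and 8 SULT genes), and the 9 that did not pass were Gstt4, Sult1c1, Sult4a1, Sult6b2, Ugt1a5, Ugt1a9, Ugt1a10, Ugt2b35 and Ugt2b36.

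Conjugation makes a lipophilic compound more soluble in water, so that it can leave the cell through export pumps and the body through bile or urine. GST enzymes add the tripeptide glutathione to electrophilic compounds, most UGT enzymes add glucuronic acid taken from UDP-glucuronic acid, and SULT enzymes add sulfate taken from the donor PAPS. In the kidney these enzymes are best known from the epithelium of the proximal tubule, which takes up organic anions and drugs from the blood, whereas podocytes, the epithelial cells that wrap the glomerular capillaries, are known for their filtration slits and not for drug metabolism.

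The study asked what changes in podocytes by middle age and what changes when the NLRP3 inflammasome is inhibited. RNA was sequenced from podocyte fractions of wildtype male C57BL/6J mice, 1 library a mouse, in 3 groups: 6 young, untreated mice of 4 months, 7 middle-aged, saline-treated mice of 19.5 months, and 8 middle-aged mice of 19.5 months that received MCC950 (labelled NLRP3i), an inhibitor of NLRP3, at 10 mg/kg for 6 weeks from 18 months of age. The fractions were collected from digested cortex with antibodies to nephrin on magnetic beads. No knockout or transgene was part of these groups.

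The deposited values were read counts per gene. Total counts ranged from 27375870 to 36827823 in young, 45772937 to 84876399 in saline and 35440472 to 58247271 in MCC950 libraries, so depth and age cannot be told apart. Mitochondrially encoded genes held 69.3% of counts in young, 69.6% in saline and 56.4% in MCC950 libraries on average (MCC950 against saline, exact two-sided permutation test, p = 0.000622). The fractions were mixed. The 16 proximal tubule markers, all detected, summed to 2233 to 8938 CPM (counts scaled to a common library size after TMM normalization) in young libraries, 2409 to 5766 in saline and 3572 to 10566 in MCC950 libraries, above the sums of the 14 podocyte markers, all detected too, of 814 to 1735, 324 to 581 and 406 to 677 CPM. With MCC950, 9 of the 16 proximal tubule markers were higher than in saline and 0 lower (edgeR's quasi-likelihood test, adjusted p under 0.05), with a median log2 difference of 0.92, while with age 0 of 16 were called. With age, 13 of the 14 podocyte markers were lower (median log2 difference -1.85). In such a fraction, fewer cells of a type and less RNA per cell cannot be told apart.

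Together the 50 members made up 0.164% to 0.399% of the counts outside the mitochondrial genome in young libraries, 0.151% to 0.296% in saline and 0.191% to 0.387% in MCC950 libraries. Ugt3a2 and Ugt2b38 alone held 33.9% of the summed CPM of all members, and with Sult1d1, Gstt1 and Ugt1a7c 53.5%. The summed level of the members was 544 to 1317 CPM in young mice (median 721), 506 to 1003 in saline mice (median 679) and 693 to 1453 in MCC950-treated mice (median 1036). The groups overlapped in this sum.

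Levels can be compared between genes only per length, and are given here as CPM per kilobase of exon, averaged over all 21 libraries. Among UGT genes the highest was Ugt3a2 at 63.8 CPM per kb, followed by Ugt2b38 at 51.5, Ugt1a7c at 12.5 and Ugt3a1 at 12.5. Ugt3a1 and Ugt3a2 belong to a small branch of the family that is known to use sugar donors other than UDP-glucuronic acid, and the Ugt2b genes encode microsomal enzymes with steroids among their substrates. Among GST genes the theta class gene Gstt1 led with 37.9 CPM per kb, ahead of the mu class gene Gstm1 at 31.1, the alpha class gene Gsta2 at 19.9 and the zeta class gene Gstz1, which acts in the breakdown of tyrosine, at 9.92. In the SULT family Sult1d1, whose enzyme sulfates catecholamines in the mouse, stood at 24.6 CPM per kb, Sult1c2 at 10.7 and Sult1a1, a phenol sulfotransferase, at 6.47, whereas the next gene, the hydroxysteroid sulfotransferase gene Sult2a3, stood at 0.25. Thus 3 SULT genes carried nearly all of that family's level, and Ugt1a1, whose enzyme conjugates bilirubin, was at 0.202 CPM per kb. For Ugt1a1 82.7% of exon bases, and for Ugt1a7c 54.6%, were also exon of another gene. How reads in such exons were counted is not given in the sources used here, so these levels are uncertain.

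**Figure D1:**
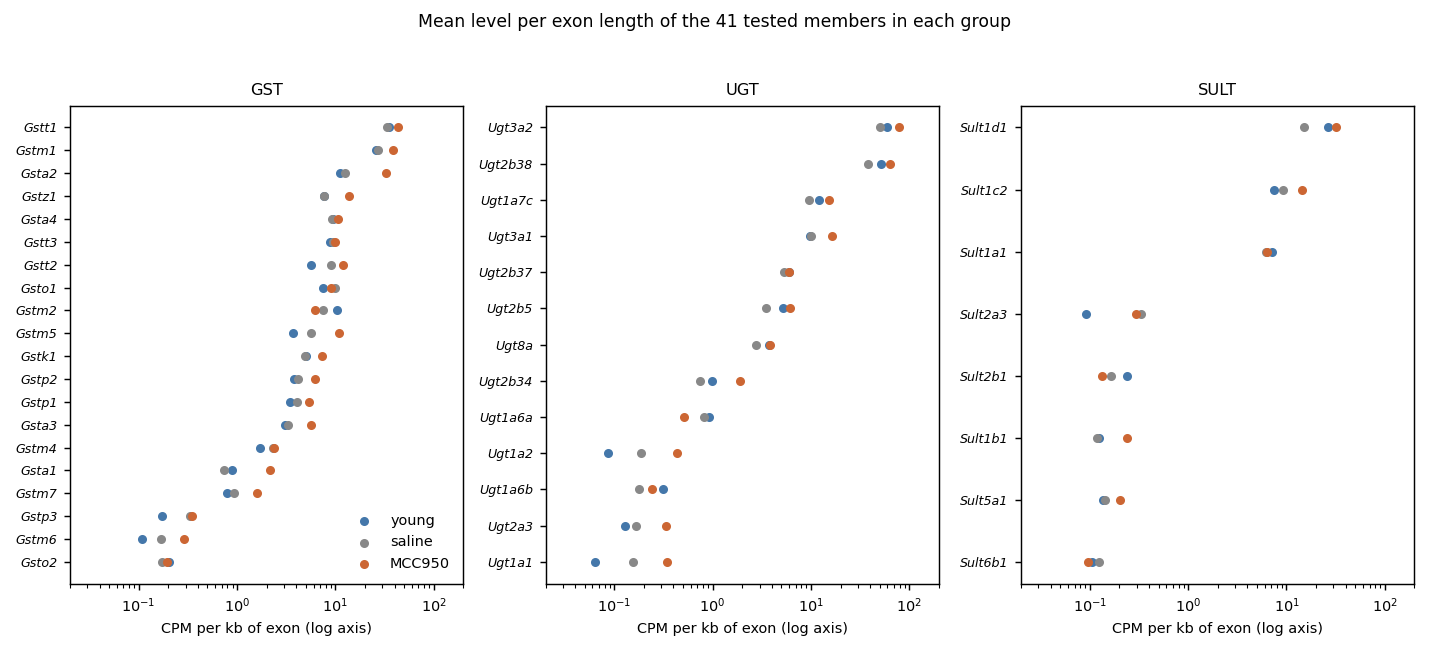
Mean level per exon length (x axis, CPM per kb, log axis) of the 41 tested members in each of the 3 groups (colours), with genes ordered by their mean over all libraries within each family. Levels spread from about that of Sult6b1 (0.108 CPM per kb over all libraries) to that of Ugt3a2 (63.8 CPM per kb).

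The first comparison asked which conjugation enzymes differed between middle-aged saline-treated and young mice. Of the 41 tested members, 3 were higher (Gstm5, Gsto1 and Sult2a3) and 3 lower (Gstm2, Sult1d1 and Ugt1a6b) at an adjusted p under 0.05. The share was 7.32% in each direction, against 12.2% higher and 12.4% lower over all 16377 genes tested. These counts are small, and without single libraries they ranged from 2 to 4 higher and from 1 to 5 lower. Whether the members differ from all genes in this share was not tested. The median log2 difference was 0.03 over the members and 0.02 over all genes. In 0 members did the groups not overlap, against 4.51% of all genes in the higher and 4.86% in the lower direction. Of the 41 members 22 had a difference above 0, against 52.7% of all genes. At an unadjusted p under 0.05 and over 2-fold, 1 member was higher and 0 lower, against 4.04% and 2.92% of all genes.

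Sult1d1 had the largest fall among the members with age. Its level was 34.4 to 88.96 CPM in young libraries (median 70.7) and 24.5 to 52.4 CPM in saline libraries (median 36.3). All 7 saline libraries lay below the young median, although the ranges overlapped. The fall was 1.76-fold (log2 difference -0.82 ± 0.20 SE, n = 6 and 7, edgeR's quasi-likelihood test, adjusted p = 0.00622). Gstm2, a mu class transferase gene, went from 11.6 to 23.1 CPM (median 16.8) in young libraries to 9.39 to 14.7 CPM (median 12.6) in saline libraries, a log2 difference of -0.49 ± 0.15 (adjusted p = 0.0194 by edgeR). Ugt1a6b, named here because it is 1 of the 3 lower members, was a low gene at 0.502 to 1.07 CPM in young and 0.232 to 0.754 CPM in saline libraries (log2 difference -0.80 ± 0.26, edgeR adjusted p = 0.0265).

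In the other direction, Gstm5 rose from 3.43 to 6.60 CPM (median 4.18) in young libraries to 4.76 to 10.1 CPM (median 7.30) in saline libraries, with a log2 difference of 0.64 ± 0.21 (edgeR adjusted p = 0.0291). Gsto1, the omega class gene whose enzyme reduces dehydroascorbate, was at 12.4 to 18.1 CPM (median 14.5) in young and 16.8 to 23.6 CPM (median 19.7) in saline libraries, 1.33-fold higher (log2 difference 0.41 ± 0.11, edgeR adjusted p = 0.00801). In 6 of 7 saline libraries its level was above every young library. Sult2a3 had the largest fold of all members with age (log2 difference 1.80 ± 0.52, edgeR adjusted p = 0.0152), on few counts: 16 over the 6 young libraries, 2 of which held 0, against 128 over the 7 saline libraries.

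The call for Gstm2 was lost without young replicate 1 and without young replicate 3 (largest adjusted p = 0.055 by edgeR), that for Ugt1a6b without the same libraries, and that for Gstm5 without young replicate 2, 3 or 4 or saline replicate 1 or 5 (largest adjusted p = 0.0672). Without young replicate 1 or young replicate 3 the number of lower members fell from 3 to 1, and without young replicate 4 it was 5. Over all genes the fits without young replicates 1, 3 and 4 called 1861, 1638 and 1995 lower, against 2038 in the main fit. When all libraries were thinned to the depth of the shallowest, 0 members were called higher and 1 lower. That fit called 1112 of 14984 genes higher and 1337 lower, against 1996 and 2038 of 16377 without thinning, so calls were fewer in general.

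The second comparison asked which members differed between MCC950-treated and saline-treated middle-aged mice. Here many were higher: 13 of the 41 tested members were called higher and 1 lower, while over all genes tested 11.9% were higher and 4.86% lower. The share of higher members was 31.7%. The median log2 difference was 0.58 over the members and 0.0028 over all genes, and 35 of 41 members had a difference above 0, against 50.5% of all genes. By family, 8 of 20 GST genes were higher and 0 lower (median 0.45), 3 of 13 UGT genes were higher and 1 lower (median 0.70), and 2 of 8 SULT genes were higher and 0 lower (median 0.28). In 2 members, Gsta1 and Ugt2b34, every MCC950 library was above every saline library, as it was for 1.15% of all genes, and in 0 members was every MCC950 library lower (0.586% of all genes). At an unadjusted p under 0.05 and over 2-fold, 6 members were higher and 0 lower, against 1.68% and 1.03% of all genes.

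**Figure D2:**
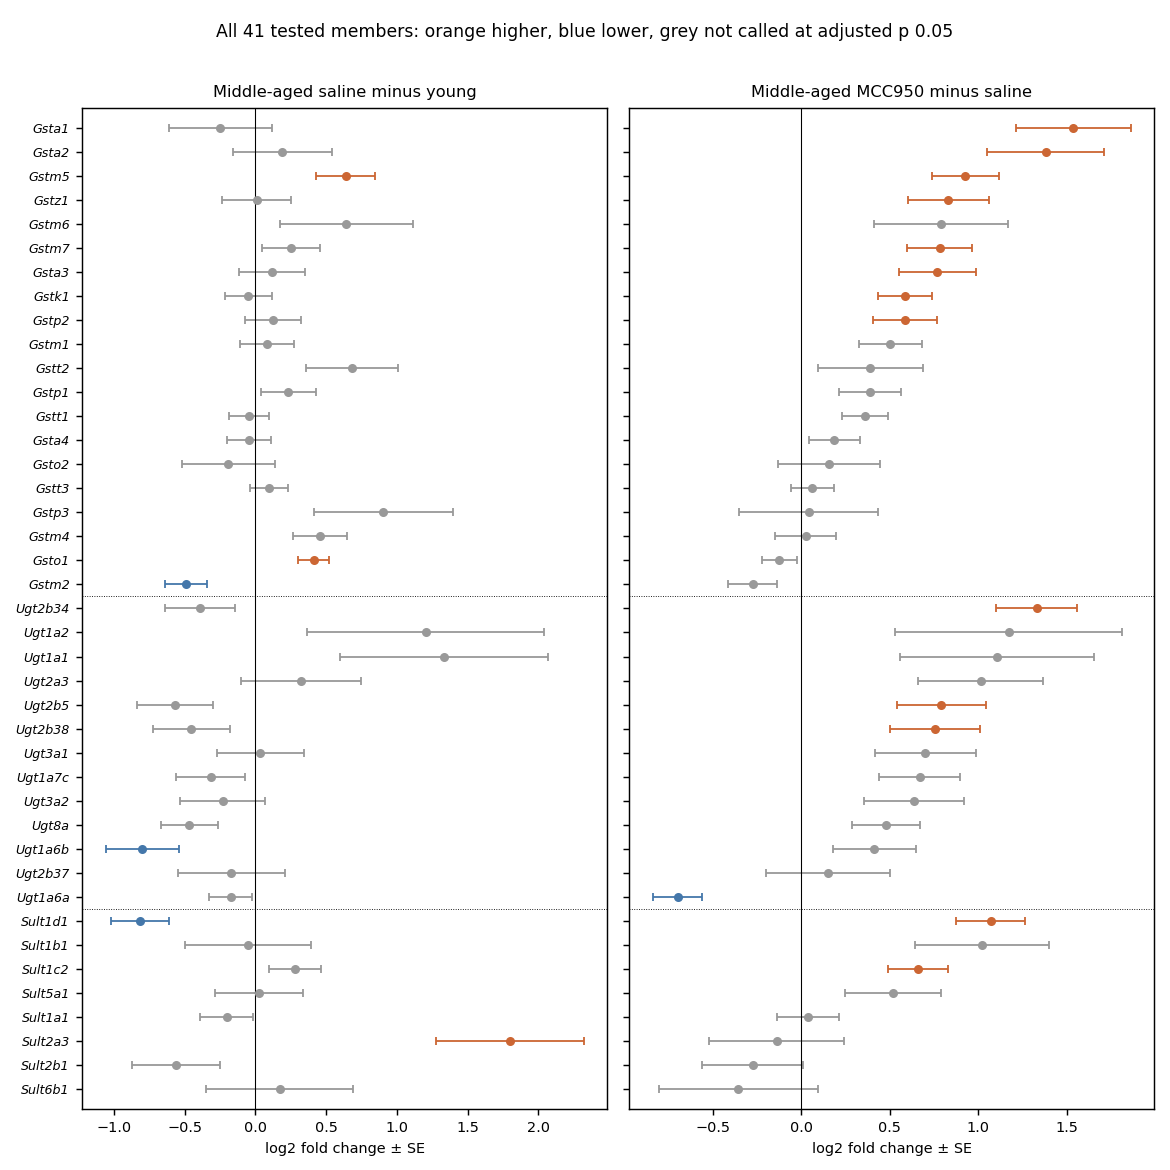
Log2 fold change with its SE (x axis) for each of the 41 tested members (y axis, grouped by family from GST at the top through UGT to SULT) in the comparison with age (left) and with MCC950 (right), with members called at an adjusted p under 0.05 in colour. On the left 3 members were higher and 3 lower, and on the right 13 were higher and 1 lower.

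The alpha class GST genes, whose enzymes conjugate products of lipid peroxidation and bind steroids and bilirubin, held the largest rises. Gsta1 was at 0.199 to 1.19 CPM in young libraries (median 0.969), 0.367 to 1.26 in saline (median 0.659) and 1.35 to 3.38 in MCC950 libraries (median 1.75). Its level with MCC950 was 2.90-fold that in saline libraries (log2 difference 1.54 ± 0.32 SE, n = 8 and 7, edgeR adjusted p = 0.00513). Gsta2 was more abundant, at 5.83 to 18.97 CPM in young (median 12.5), 5.98 to 30.2 CPM in saline (median 13.9) and 26.4 to 65.5 CPM in MCC950 libraries (median 33.8). All 8 MCC950 libraries were above the saline median, and 4 of them above the highest saline library. The rise was 2.60-fold (log2 difference 1.38 ± 0.33, edgeR adjusted p = 0.00967). Gsta3 rose as well (log2 difference 0.77 ± 0.22, adjusted p = 0.0212 by edgeR), whereas Gsta4 did not pass the test (0.19 ± 0.14, adjusted p = 0.387 by edgeR).

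The values of Gsta1 and Gsta2 are uncertain, since these genes share sequence with others. Of the 50-base windows of Gsta1's GENCODE transcripts, 90.5% occurred also in another gene, mostly Gm3776, and of those of Gsta2 49.8%, mostly in Gsta1. Both lie on chromosome 9, Gsta1 at chr9:78230656-78242684 on the plus strand and Gsta2 at chr9:78331018-78355788 on the minus strand (ranges of GENCODE M21 on mm10). Their promoters are alike as well. The following stretches are from RefSeq on GRCm38.p6, written 5′ to 3′ on the strand of the gene, and are shown because these genes had the largest rises of the GST family. They end at a match to GCGTG, in capitals, the core of the xenobiotic response element bound by the aryl hydrocarbon receptor. The match starts 2 bases before the RefSeq start of Gsta1 (chr9:78230597-78230671, plus strand) and 7 bases before a RefSeq start of Gsta2 (chr9:78347148-78347222, minus strand). RefSeq and GENCODE starts differ: the Gsta2 stretch lies inside the GENCODE range given above, and the Gsta1 stretch overlaps the start of its range.
Gsta1: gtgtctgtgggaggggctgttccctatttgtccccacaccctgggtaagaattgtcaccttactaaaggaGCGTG
Gsta2: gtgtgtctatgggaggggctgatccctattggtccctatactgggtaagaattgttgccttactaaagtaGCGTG
The longest run that both stretches of 75 bases share is 15 bases. GCGTG on either strand occurred in the promoter windows (250 bases before to 50 after the start) of 11 of the 45 members with a RefSeq entry, 24.4%, and in 35.2% of 27025 genes.

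Of the mu class GST genes, which lie together on chromosome 3 (chr3:107895821-108044894 for the 6 members), 2 of 6 rose with MCC950 and 0 fell. Gstm5 was at 4.76 to 10.1 CPM (median 7.30) in saline libraries and 9.74 to 20.4 CPM (median 12.9) in MCC950 libraries, a 1.90-fold rise (log2 difference 0.93 ± 0.19, adjusted p = 0.00415 by edgeR), after a rise with age of the smaller size given above. Gstm7 rose by a log2 difference of 0.78 ± 0.18 (edgeR adjusted p = 0.00913). Gstm1, the most abundant of the class, was at 29.9 to 54.0 CPM (median 36.0) in saline and 38.9 to 87.2 CPM (median 48.1) in MCC950 libraries, with a log2 difference of 0.50 ± 0.18 that did not pass the test (edgeR adjusted p = 0.054). Gstm2, lower with age, was at 7.78 to 12.9 CPM (median 10.4) in MCC950 libraries (log2 difference from saline -0.27 ± 0.14, edgeR adjusted p = 0.177).

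Of the other classes, Gstz1 rose from 25.7 to 56.8 CPM (median 40.1) in saline libraries to 38.6 to 94.3 CPM (median 70.5) in MCC950 libraries, with a log2 difference of 0.83 ± 0.23 (edgeR adjusted p = 0.0186). In 6 of 8 MCC950 libraries its level was above every saline library. Gstk1, the kappa class gene of mitochondria and peroxisomes, rose by a log2 difference of 0.59 ± 0.15 (edgeR adjusted p = 0.0141), and the pi class gene Gstp2 by 0.58 ± 0.18 (edgeR adjusted p = 0.031), though 54.3% of its windows occur in another gene, mostly Gstp1, whose own difference of 0.39 ± 0.17 did not pass (edgeR adjusted p = 0.127). Gstt1, at 40.3 to 64.1 CPM in saline and 51.3 to 86.6 CPM in MCC950 libraries, had a log2 difference of 0.36 ± 0.13 (edgeR adjusted p = 0.0594). Gsto1, which was higher with age, was at 14.7 to 21.3 CPM with MCC950 (log2 difference -0.12 ± 0.10, edgeR adjusted p = 0.415). Gsta3, Gstk1, Gstm7, Gstp2 and Ugt1a6b were called but fell outside the rule for named genes, and they, with Gsta4, Gstp1, Ugt8a, Ugt1a1 and Ugt1a2, were chosen for description after their values were seen.

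The core of the antioxidant response element, TGACNNNGC on either strand, through which the factor NRF2 is known to act on GST genes, was found in the promoter window of 3 of the 45 members with an entry, 6.67%, against 14% of 27025 genes. All 3 were GST genes called higher with MCC950. The stretches are from RefSeq on GRCm38.p6, 5′ to 3′ on the strand of the gene, with the match in capitals. They lie upstream of the RefSeq starts of Gsta3 (chr1:21240439-21240497, plus strand), Gstm5 (chr3:107895787-107895845, plus strand) and Gstm7 (chr3:107931710-107931768, minus strand).
Gsta3: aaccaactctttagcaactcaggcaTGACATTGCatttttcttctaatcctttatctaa
Gstm5: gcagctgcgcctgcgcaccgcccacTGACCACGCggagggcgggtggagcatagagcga
Gstm7: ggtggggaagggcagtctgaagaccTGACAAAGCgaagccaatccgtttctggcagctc
The match in Gstm5 overlaps a GCGTG core on the other strand. The palindromic site of the tubular and hepatic factor HNF1 was found in 0 of the 45 windows and in 0.074% of all genes. A match is a string of letters in this window, and nothing follows from it about the factor.

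Of the 13 tested UGT genes, Ugt2b34, Ugt2b5 and Ugt2b38 rose with MCC950. They lie in a cluster on chromosome 5 that also holds Sult1d1 (chr5:86889767-87569027, 9 members), in which 4 of 7 tested members rose and 0 fell, with differences from 0.15 to 1.33. Ugt2b34 was at 1.69 to 6.12 CPM in young (median 4.63), 1.90 to 5.40 CPM in saline (median 3.09) and 5.53 to 10.8 CPM in MCC950 libraries (median 8.27). The lowest MCC950 library was above the highest saline library, and the rise was 2.51-fold (log2 difference 1.33 ± 0.23, edgeR adjusted p = 0.00149). Its transcript is nearly free of shared sequence, since 1.44% of its windows occur in another gene.

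Ugt2b38 and Ugt2b5 were less uniform. Ugt2b38 was at 57.5 to 97.1 CPM in saline libraries (median 70.9) and at 66.2 to 175 CPM in MCC950 libraries (median 108.8), with a log2 difference of 0.75 ± 0.26 (edgeR adjusted p = 0.047). MCC950 replicates 1, 2 and 3 stood at 175, 161 and 170 CPM, and replicates 4 to 8 at 80.4, 95.4, 66.2, 92.6 and 122 CPM. Thus 4 of the 8 libraries were above the saline range and the other 4 lay inside it. Ugt2b5 was also highest in these 3 libraries, at 14.6, 17.4 and 16.9 CPM in replicates 1 to 3 and 6.28 to 11.6 CPM in the other 5, against 5.33 to 8.14 CPM in saline libraries (log2 difference 0.79 ± 0.25, edgeR adjusted p = 0.0355). The genes share sequence, with 34.2% of the windows of Ugt2b38 found in Ugt2b5, and how reads common to both were counted is not given in the sources used here. The call for Ugt2b38 was lost when any of 15 of the 21 libraries was left out (largest adjusted p = 0.109 by edgeR), and that for Ugt2b5 with any of 9 (largest 0.0787).

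Ugt3a2, the UGT gene of highest level, did not pass the test. It was at 92.6 to 378 CPM in young (median 163), 91.9 to 243 CPM in saline (median 145) and 128 to 399 CPM in MCC950 libraries (median 239). The groups overlapped widely, and the log2 difference with MCC950 was 0.64 ± 0.28 (edgeR adjusted p = 0.123). Ugt3a1 beside it on chromosome 15 was at 13.1 to 54.6 CPM in saline and 27.5 to 70.1 CPM in MCC950 libraries (0.70 ± 0.29, edgeR adjusted p = 0.096). Ugt1a7c was at 25.8 to 63.0 CPM in saline and 37.0 to 93.6 CPM in MCC950 libraries (0.67 ± 0.23, edgeR adjusted p = 0.0507). Ugt8a, which encodes the galactosyltransferase that makes galactosylceramide, had a difference of 0.48 ± 0.19 (edgeR adjusted p = 0.0863).

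A single member fell with MCC950. Ugt1a6a, a phenol-conjugating member of the Ugt1a locus, was at 3.14 to 4.94 CPM in young (median 3.70), 2.58 to 4.90 CPM in saline (median 3.15) and 1.75 to 2.64 CPM in MCC950 libraries (median 2.18). All 8 MCC950 libraries lay below the saline median, and 6 of them below every saline library. The fall from saline was 1.62-fold (log2 difference -0.70 ± 0.14, edgeR adjusted p = 0.00391), and the fall from young, where the ranges did not overlap, was -0.87 ± 0.15 (edgeR adjusted p = 0.000133). In the Ugt1a locus (chr1:88055388-88220002) the genes have first exons of their own and common last exons. For Ugt1a6a 50.3% of exon bases were also exon of another gene of the locus, and for Ugt1a7c 54.6%. How reads in these exons were counted is not given in the sources used here, so values of single Ugt1a genes are uncertain. Within the locus Ugt1a6a fell while Ugt1a7c had the difference of 0.67 given above, and Ugt1a1 and Ugt1a2, both under 3 CPM in every library, had differences of 1.11 ± 0.55 and 1.17 ± 0.64 (edgeR adjusted p = 0.169 and 0.218).

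Of the SULT genes Sult1d1 and Sult1c2 rose with MCC950. Sult1d1 was the member called in opposite directions in these comparisons, which share the saline libraries. After the fall with age, it was at 46.7 to 107.96 CPM in MCC950 libraries (median 80.9) against 24.5 to 52.4 CPM in saline libraries. In 7 of 8 MCC950 libraries its level was above every saline library. The rise was 2.10-fold (log2 difference 1.07 ± 0.19, edgeR adjusted p = 0.00208), and the difference from young libraries was 0.25 ± 0.20 (edgeR adjusted p = 0.326). Sult1c2 was at 9.71 to 19.2 CPM in young, 12.3 to 22.9 CPM in saline (median 16.1) and 16.3 to 35.4 CPM in MCC950 libraries (median 28.0), with a log2 difference of 0.66 ± 0.17 (edgeR adjusted p = 0.0134). The ranges of Sult1a1 overlapped in all groups, at 6.52 to 16.9 CPM in young, 6.67 to 11.9 CPM in saline and 7.19 to 12.4 CPM in MCC950 libraries (log2 difference with MCC950 0.04 ± 0.18, edgeR adjusted p = 0.912). Sult2a3, higher with age, was at 0.128 to 0.564 CPM with MCC950 (-0.14 ± 0.38, edgeR adjusted p = 0.836).

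**Figure D3:**
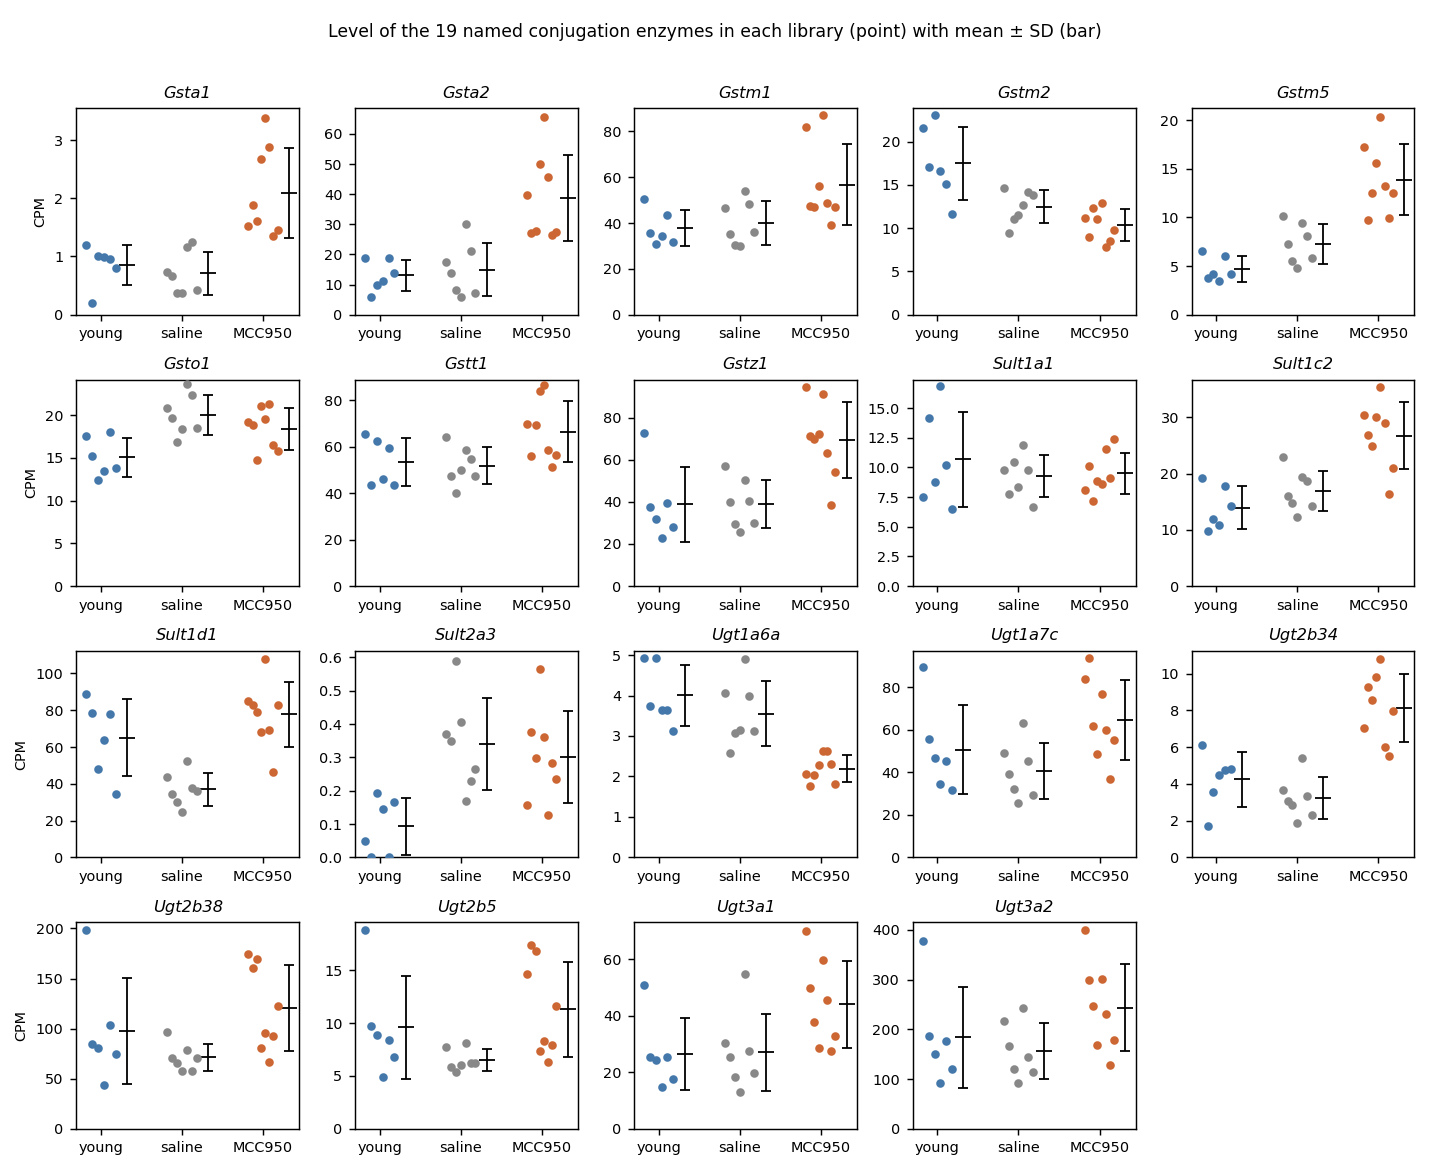
Level in each library (y axis, CPM from 0) of the 19 members named by rule, in 6 young, 7 saline and 8 MCC950 libraries (points, replicate order from left to right), with mean ± SD beside them. Gsta1 and Ugt2b34 in MCC950 libraries lie above all saline libraries, Ugt1a6a lies low in MCC950 libraries, and the median of Sult1d1 is lowest in saline libraries.

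Against young mice, which were not treated and differ from MCC950-treated mice in age as well, 20 of 41 members were higher and 3 lower with MCC950, against 21.8% and 16.5% of all genes. A difference above 0 was found in 33 members, against 58.1% of all genes. In 3 members (Gsta1, Gsta2 and Gstm5) every MCC950 library was above every young library and in 1 (Ugt1a6a) below, against 3.28% and 4.66% of all genes. At an unadjusted p under 0.05 and over 2-fold, 10 were higher and 0 lower, against 4.05% and 4.32%. The higher members were 14 GST, 4 UGT and 2 SULT genes, and the lower were Gstm2, Sult2b1 and Ugt1a6a. The young libraries also enter the comparison with age, so this comparison is not independent of it.

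Proximal tubule markers were higher with MCC950 too, as given above, and each comparison was therefore fitted again with the marker score (mean log2 CPM of the 16 markers, none of them a member) in the model. The score ranged from 6.31 to 8.13 in young, 6.25 to 7.50 in saline and 6.97 to 8.32 in MCC950 libraries. With the score in the model, 2 of the 14 members called with MCC950 stayed called, Ugt2b34 as higher (log2 difference 0.90, edgeR adjusted p = 0.032) and Ugt1a6a as lower (-0.86, edgeR adjusted p = 0.00656), and the median difference over the members went from 0.58 to 0.08. Among the 41 tested members this fit called 1 higher and 1 lower, against 13 and 1 without the score. Over all 16377 genes it called 411 higher and 322 lower, against 1957 and 796 without the score. Whether the members lost calls more often than all genes was not tested. The difference of Gstz1 went from 0.83 to 0.05, that of Gsta3 from 0.77 to 0.10 and that of Ugt2b38 from 0.75 to -0.01, whereas those of Gsta1 (1.18), Gsta2 (0.83) and Sult1d1 (0.57) stayed above 0.5 without passing the test (edgeR adjusted p = 0.071, 0.14 and 0.0573). Hepatocyte markers moved with MCC950 too: 3 of the 4 tested of 7 (Alb, Apob and Fga) were higher, with sums of 16.9 to 45.8, 15.0 to 64.1 and 55.6 to 85.02 CPM in the 3 groups. Of the other 4, Fgb was tested and not called, Apoa1 and Serpina3k were too low to be tested and Ahsg was at 0 in all libraries. The part of these markers in the members' differences was not tested. With the podocyte marker score in the model, 0 of the 6 members called with age stayed called, and that score did not overlap between the groups (4.76 to 5.85 in young and 2.87 to 4.08 in saline libraries). Over all genes that fit called 7 higher and 0 lower with age, against 1996 and 2038 without the score. Since the score separates the groups, the fit cannot tell whether the loss was particular to the members.

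**Figure D4:**
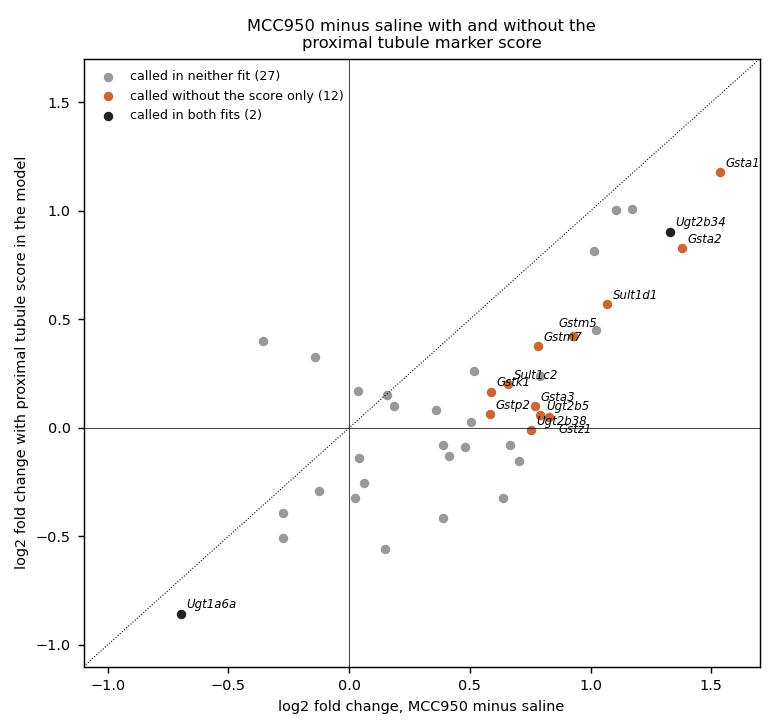
Log2 fold change of each of the 41 tested members with MCC950 without (x axis) and with (y axis) the proximal tubule marker score in the model, colored by the fit in which a member was called, with the diagonal dotted. Of the 14 members called without the score, 12 were not called with it, and Ugt2b34 and Ugt1a6a were called in both fits.

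**Figure D5:**
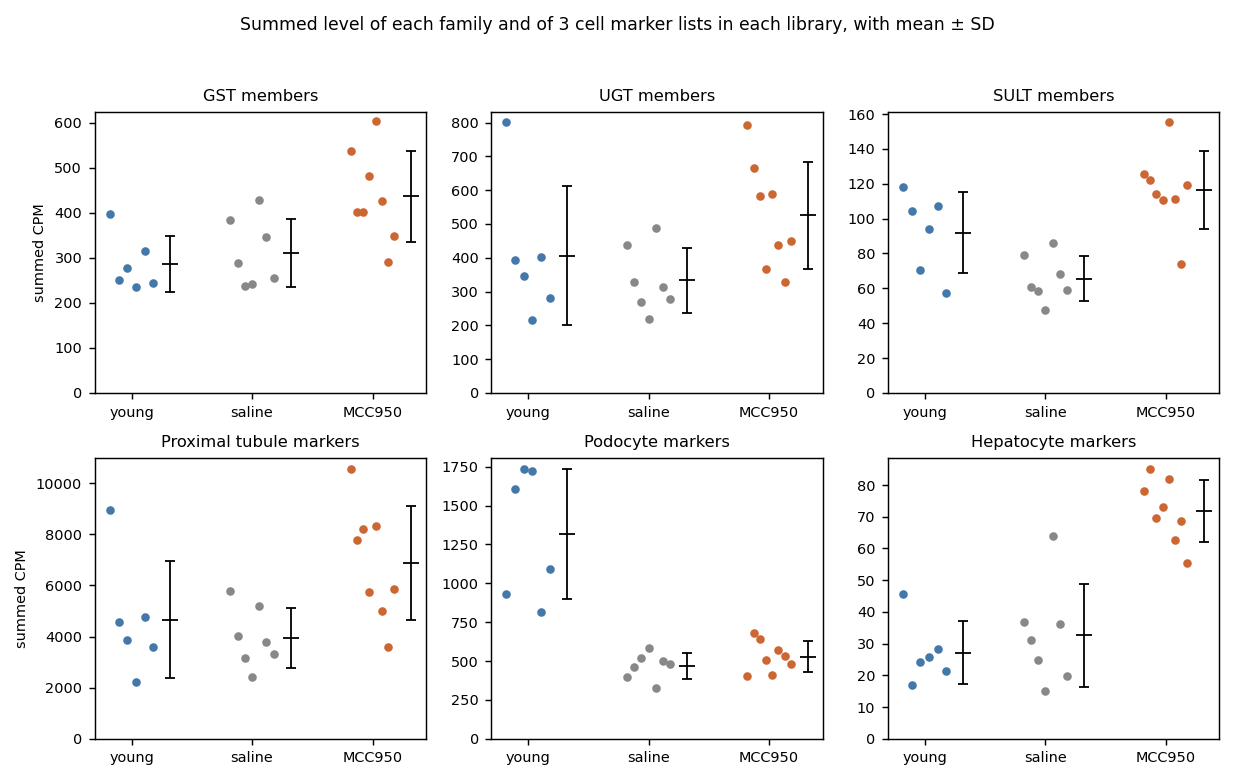
Summed CPM (y axis, from 0) of the GST, UGT and SULT members and of 3 marker lists in each library (points) with mean ± SD. Young replicate 1 has the highest proximal tubule sum among young libraries (8938 CPM) and the highest UGT sum of all libraries (800.5 CPM), and podocyte sums are highest in young libraries.

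Libraries stood apart for single members, and young replicate 1 also for the sum over all members (1317 CPM against 826 in the next young library). Young replicate 1, which had the highest tubule score of its group, was also the highest for Ugt3a2 (378 CPM against 186 in the next library), Ugt3a1, Ugt2b5 and Gstz1. Leaving out young replicate 1 and saline replicate 5 together, a setting chosen after seeing the data, gave 18 members higher and 1 lower with MCC950, and 4 higher and 2 lower with age. Over all 16423 genes tested that fit called 2129 higher and 757 lower with MCC950, and 1494 and 1665 with age. Without saline replicate 4 the number of members called higher with MCC950 was 8, against 13 in the main fit. Over all genes it was 1008 against 1957, so calls were fewer in general. The call for Gstz1 was lost in that setting (adjusted p = 0.0529 by edgeR). The call for Gsta3 was lost without saline replicate 3 or 4, and that for Gstp2 without any of 7 libraries. After thinning to equal depth, 7 members were higher with MCC950 and 0 lower. Over all genes 935 of 14984 were then higher and 382 lower, against 1957 and 796 of 16377 without thinning.

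The genes that supply and follow the conjugation reactions were read from lists. Beside every list stand 11.9% of all genes higher and 4.86% lower with MCC950, and 12.2% and 12.4% with age. Whether a list differs from all genes was not tested. Of 15 genes of glutathione synthesis and turnover, all tested, 6 were higher with MCC950 and 0 lower. With age 1 was higher and 1 lower. The median log2 differences of this list were 0.42 with MCC950 and -0.05 with age, against 0.0028 and 0.02 over all genes. The ligase that completes glutathione, Gss, went from 25.6 ± 5.62 CPM (SD, n = 7) to 43.6 ± 11.8 CPM (SD, n = 8), a log2 difference of 0.77 ± 0.20 (edgeR adjusted p = 0.0155), and Gclm, the modifier subunit of the rate-limiting ligase, rose by 0.65 ± 0.17 (edgeR adjusted p = 0.0142), whereas the catalytic subunit Gclc had a difference of 0.26 ± 0.12 (edgeR adjusted p = 0.151). Higher too were the brush border enzymes Ggt1, Dpep1 and Anpep, which break down glutathione and its conjugates outside the cell, and Chac2, which degrades glutathione in the cytosol. With age, Slc7a11, the cystine importer, was higher (log2 difference 1.82 ± 0.43, edgeR adjusted p = 0.00393) and Chac2 lower (-0.62 ± 0.15, edgeR adjusted p = 0.00503).

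Of 6 genes of the membrane-bound transferase family, 5 were tested and 0 were called with MCC950, and with age Alox5ap was higher and Ptges, the inducible prostaglandin E synthase, lower (39.7 ± 13.4 CPM, SD, n = 6, to 21.2 ± 3.72 CPM, SD, n = 7). Of 4 genes that form or break down mercapturates and cysteine conjugates, Kyat1 was higher with MCC950 and 0 were lower. Nat8, which forms mercapturates, was not called (0.56 ± 0.28, edgeR adjusted p = 0.176). Of 4 genes that supply UDP-glucuronic acid, Ugp2 was higher with MCC950. Among 8 genes of PAPS and sulfate supply, Bpnt1 and the sulfate exchanger gene Slc26a1 were higher with MCC950, while with age the PAPS carrier gene Slc35b2 was higher and Bpnt2 lower. Papss2, which makes PAPS, had a difference of 0.57 ± 0.34 with MCC950 (edgeR adjusted p = 0.267). Of 3 listed genes of lysosomal hydrolases that remove glucuronic acid or sulfate groups, Gusb, the β-glucuronidase, was higher with age (0.56 ± 0.18, edgeR adjusted p = 0.0251). Arsb was higher with MCC950. Sts, a sulfatase gene also on the list, had no entry under that symbol.

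Of 7 export pump genes, the apical pumps Abcc2 (log2 difference 0.78 ± 0.25, edgeR adjusted p = 0.0397) and Abcg2 (0.71 ± 0.20, edgeR adjusted p = 0.0221) were higher with MCC950 and Abcc1 was lower (-0.23 ± 0.07, edgeR adjusted p = 0.0329). With age, Abcc1 and the basolateral pump gene Abcc3 were higher. Of the 10 tested of 11 regulator genes, Hnf4a, a factor of proximal tubule and liver, was higher with MCC950 (99.5 ± 31.2 CPM, SD, n = 7, to 208 ± 42.9 CPM, SD, n = 8, edgeR adjusted p = 0.003), as were the xenobiotic receptor gene Nr1i2 and Rxra, and 0 were called with age. Nfe2l2, the gene of NRF2, had a difference of 0.06 ± 0.12 with MCC950 (edgeR adjusted p = 0.783). Of 8 target genes of NRF2, Txnrd1, Srxn1 and Gclm were higher with MCC950 and 0 were lower. The median difference was 0.27, against 0.0028 over all genes. Nqo1 (0.18 ± 0.20, edgeR adjusted p = 0.562) and Slc7a11 (-0.83 ± 0.35, edgeR adjusted p = 0.11) were not called. Hmox1 (0.07 ± 0.31), Gclc (0.26 ± 0.12) and Gsr (0.29 ± 0.15) were not called either. The part of the proximal tubule markers, higher with MCC950, in the differences of these lists was not tested.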

How the data were processed

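RNA of nephrin-selected podocyte fractions was sequenced from 21 individual mice with TruSeq libraries. Per the labels and the study's methods, the authors used Trim Galore, Bowtie2 with mm10 and featureCounts; the strand setting and the handling of ambiguous reads are not given in the sources used here. The authors deposited raw read counts per Entrez gene for each library, the base of every result. The deposited normalized signal table, the same counts divided by 1 size factor per library for 20 libraries, was not used for results. Symbols came from RefSeq GRCm38.p6 for 25275 genes and GENCODE M21 for 18, with 1886 unnamed; exon lengths and shared sequence came from GENCODE M21.

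Differences were computed by edgeR 4.0.16 (R 4.3.3; TMM, filterByExpr by group, quasi-likelihood F test, all 3 groups in 1 fit) with Benjamini-Hochberg adjustment over all 16377 tested genes and a threshold of 0.05; the SE is the log2 difference divided by the root of F. The workflow was tested on simulated data. Alternatives were DESeq2 1.42.0, other scaling and filters, only the groups compared, thinned libraries, marker scores as covariates, replicate number as a block and each library left out. Depth was compared by exact permutation tests in scipy 1.17.1. No library duplicated another (lowest chi-square per degree of freedom within a group 16.7). The members and gene lists were chosen with earlier results of these data known. Genes were named by a rule: in each family and comparison up to 4 called rises and 4 falls of largest size with a mean of at least 0 log2 CPM, the 4 highest levels per length, members without overlap and members called in opposite directions. A count of 0 over a group allows up to 0.0164 CPM in young, 0.00656 in saline and 0.0078 in MCC950 libraries (3 counts, counting error only).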

Additional observations from a re-analysis of the deposited data

Results flagged for a closer look

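In groups of 6 to 8 libraries, 6 of 72 checks (24 members in 3 groups) found 1 library set apart from the others by Dixon's test. In a single check chance gives this in about 1 in 20. The checks share libraries and are not independent, and the members were partly chosen by their calls. Their number can therefore not be set against that rate. Young replicate 1 was the highest young library for Gstz1 (72.6 CPM, next 39.6), Ugt2b5 (18.8 CPM, next 9.75), Ugt3a1 (50.7 CPM, next 25.2) and Ugt3a2 (378 CPM, next 186). Saline replicate 5 was the highest saline library for Ugt3a1 (54.6 CPM, next 30.2) and Ugt1a6b (0.754 CPM, next 0.436). The proximal tubule marker score of young replicate 1 was 8.13, the highest of its group, and that of saline replicate 5 was 7.50, next to the highest of its group, replicate 1.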

How the results depend on the processing

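Without single libraries, the number of members higher with age ranged from 2 to 4 and lower from 1 to 5, the number higher with MCC950 from 8 to 19 and lower from 1 to 1, and against young mice from 17 to 25 and from 2 to 3. Over all genes tested, the same fits called 1353 to 2270 higher and 1638 to 2403 lower with age. With MCC950 they called 1008 to 2392 and 515 to 1007, and against young mice 2556 to 3725 and 2468 to 3001. The labels' replicate numbers do not pair the mice (correlations -0.061 to 0.347 over 6 pairs and -0.144 to 0.335 over 7). With replicate number as a block, 5 members were higher with age and 21 with MCC950. Over all 16377 genes 2219 and 2381 were higher in that fit, against 1996 and 1957 in the main fit. Thinned to 5804891 counts, 0 members were higher and 1 lower with age, 7 and 0 with MCC950, and 12 were higher against young mice. Over 14984 genes the thinned fit called 1112 higher and 1337 lower with age, 935 and 382 with MCC950, and 1917 higher against young mice. With the proximal tubule score, 8 members were higher with age, 1 with MCC950, and 10 were higher and 5 lower against young mice. Over all 16377 genes that fit called 2709 higher with age, 411 with MCC950, and 3547 higher and 2654 lower against young mice. With the podocyte score, 0 members were higher and 0 lower with age, 22 higher with MCC950, and 0 higher and 1 lower against young mice. Over all 16377 genes the same fit called 7 higher and 0 lower with age, 2551 higher with MCC950, and 20 higher and 41 lower against young mice. Gstm5 and Gsto1 reversed with age in that fit, at -0.59 and -0.053. Ugt2b38 reversed with the tubule score, at -0.010. With an unadjusted p under 0.05 and over 2-fold, 1 and 0 passed with age, 6 and 0 with MCC950, and 10 and 0 against young mice. DESeq2 called 2 members lower with MCC950, Ugt1a6a and Sult4a1, the latter not tested by edgeR, and over all genes it called 1225 lower. In the other settings these counts stayed within 1.5 times. Over all settings other than leaving out a library, the 24 members checked one by one (19 named by the rule and 5 called outside it) lost a call 19 times and gained one 20 times with MCC950, and 9 and 3 times with age. Apart from settings that test fewer libraries, reads or genes, the cause was not tested.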

Other observations

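Of the 9 members too low to be tested, Ugt1a10 held 139 counts and Sult4a1 138 over all 21 libraries, and the other 7 between 12 and 46. Sult4a1, which DESeq2 did test, had a log2 difference of -1.23 with MCC950 (DESeq2 adjusted p = 0.0301). In Ugt1a1 and Ugt1a2, saline replicates 5 and 6 (0.90 and 0.728 CPM for Ugt1a1, 1.31 and 0.956 CPM for Ugt1a2) stood above the other 5 saline libraries, and MCC950 replicate 5 was the highest of all libraries (1.90 and 2.64 CPM).

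Members lying together on a chromosome (gaps under 1 Mb) formed 9 clusters with 39 of the 50 members. In the theta class cluster on chromosome 10, 0 of 3 tested members were called in either comparison, and in the alpha class cluster on chromosome 9 2 of 3 were higher with MCC950.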
